A study of Solanum tuberosum with 12 samples.

Results

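Black kingkong and LK99 are 2 of the 4 potato (Solanum tuberosum) cultivars whose tuber small RNA was sequenced, and the comparison between them rests on 6 of the 12 libraries, 3 of each cultivar. Both cultivars were sampled at 150 days of age, with no treatment named, and all 4 cultivars shared a field and its growing conditions. Red beauty and Longshu No.7 entered the fit because they share its estimate of the spread, and their levels are given only where they place a value. The labels give neither flesh nor skin colour, and do not say that the libraries of a cultivar came from separate plants, so the p-values measure the spread between libraries, which may be technical. The series title names anthocyanin synthesis and its regulatory miRNAs as the subject. No miRNA list used here marks tuber tissue, so that label could not be checked against markers, and in a whole tuber fewer cells that make a miRNA and less of it per cell cannot be told apart.

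Plant miRNAs are cut by DICER-LIKE1 from the stem of a hairpin transcript, which yields a 5p and a 3p strand, and the strand kept by an ARGONAUTE protein guides the cleavage of mRNAs that pair with it along nearly its whole length. Many conserved families repress transcription factors: miR156 acts on SPL genes that set the juvenile to adult change, miR172 on AP2-like genes, miR319 on TCP genes, and miR828 and miR858 on R2R3-MYB genes, a class that includes regulators of anthocyanin synthesis. In potato, miR156 and miR172 are both known to influence tuber formation. Families of 22 nt such as miR482 pair with the mRNAs of NLR immune receptors and can start the production of secondary small RNAs.

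Potato-named and conserved sequences on which the results by family turn are shown first, from 5′ to 3′ and in the DNA letters of the deposited table, with bases 2 to 8, the seed, in capitals. A name with the prefix stu is a potato miRNA, and a name ending in x, y or z was given by the authors from another species. Sequences that the authors predicted are called here by the letter m and their number, without the first word of the deposited name. Those higher in Black kingkong include the miR319 sequences, which share 1 seed, both miR162 3p forms, miR6149 and a 3p sequence common to miR172a, b and e.
stu-miR319a-3p: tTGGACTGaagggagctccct
miR319-y: tTGGACTGaagggagctccctt
stu-miR319-3p: tTGGACTGaagggttcccttc
stu-miR162a-3p: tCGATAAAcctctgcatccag
miR162-y: tCGATAAAcctctgcatccct
stu-miR6149-5p: tTGCAACAcacctgaatcgtc
stu-miR172a-3p: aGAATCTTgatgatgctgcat
stu-miR160a-5p: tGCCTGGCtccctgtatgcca

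Those lower in Black kingkong include several miR156 sequences, stu-miR827-3p, and strands of the NLR-targeting families miR482, miR6024 and miR6026. With them is shown stu-miR156e, the sequence listed as miR156e and g to k, which overlaps stu-miR156f-5p after a shift and was not called.
stu-miR156d-5p: tTGACAGAagatagagagcac
stu-miR156f-5p: cTGACAGAagagagtgagca
miR156-x: aCTGACAGaagagagtgagc
stu-miR156e: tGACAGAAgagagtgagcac
stu-miR827-3p: tTAGATGAacatcaacaaaca
stu-miR482a-5p: gGAATTGGtggattggaaagc
stu-miR6024-3p: tTTTAGCAagagttgttttccc
stu-miR6026-5p: aATACAACtattgccaagacaa

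The deposited table holds raw counts for 7827 mature miRNA entries, which are 5730 distinct sequences of 18 to 26 nt. Each distinct sequence is represented here by its most counted entry, so stu-miR156d-5p stands for the sequence listed as miR156a to d. Likewise stu-miR156e stands for the sequence listed as miR156e and g to k. The libraries hold 6462194, 6896055 and 6584272 counts for Black kingkong and 5863911, 5688606 and 6339675 for LK99. A single sequence, miR166-y, takes 88.9 to 90.7% of the counts of these 6 libraries, so all other sequences share the small remainder. Levels are CPM (counts scaled to a common library total), corrected by the trimmed mean of M values (TMM), a factor that averaged 0.990 for Black kingkong and 1.26 for LK99. On log CPM over the tested sequences, Black kingkong libraries correlated with each other at Pearson r of 0.967 to 0.974, LK99 libraries at 0.905 to 0.960, with replicate 3 farthest from the others, and libraries of different cultivars at 0.817 to 0.840.

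Of the 1003 sequences with enough counts to test, 282 (28.1%) differed between Black kingkong and LK99 at an edgeR quasi-likelihood adjusted p under 0.05, and such a sequence is said to be called. In Black kingkong, 119 of the tested sequences (11.9%) were higher and 163 (16.3%) were lower. The calls that were higher had a median log2 fold change of 2.11, Black kingkong minus LK99, and those that were lower a median of -3.11, whereas the median over all tested sequences was -0.04. Libraries of the cultivars did not overlap for 260 of the 282 called sequences and for 461 (46.0%) of all that were tested. Sequences that reached 10 CPM in either cultivar were called in 70 of 234 cases (29.9%) and rarer ones in 212 of 769 (27.6%). Together the 282 called sequences held 2.39 to 2.64% of the counts of Black kingkong and 1.51 to 1.94% of those of LK99. Scaling by library size alone moved the median of all sequences to -0.37 and the split to 84 higher and 224 lower, so that 27.3% of calls were higher in place of 42.2%. Leaving out Longshu No.7 replicate 3, whose library stood apart from its group at r of 0.868 to 0.874, raised the calls to 368, and leaving out LK99 replicate 3 lowered them to 246.

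**Figure D1:**
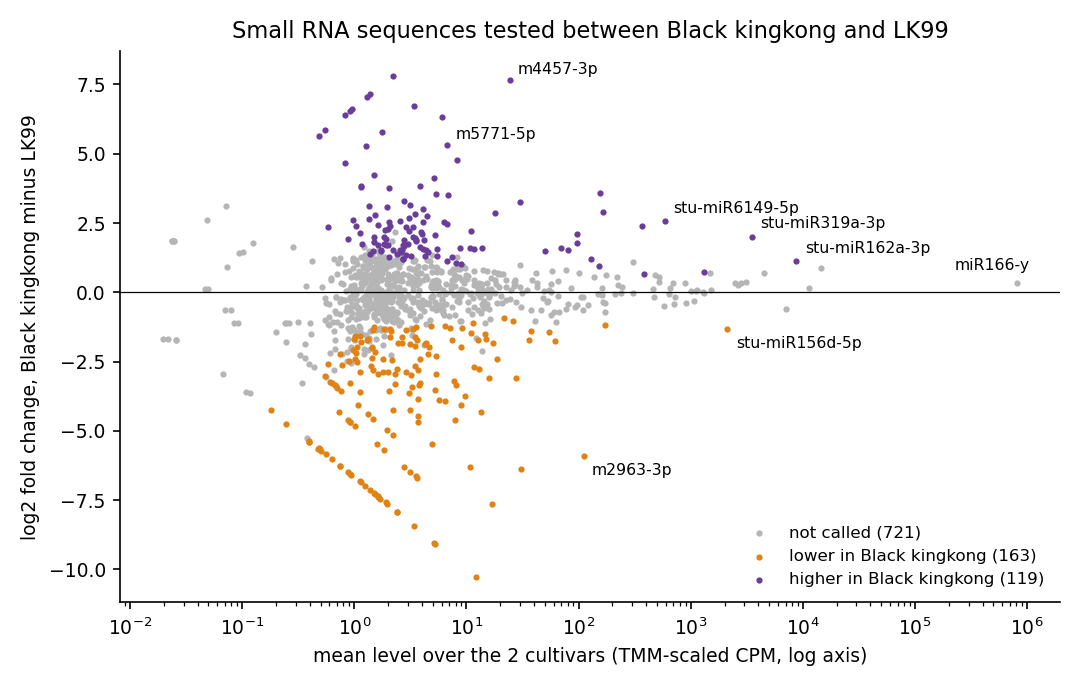
Log2 fold change of each of the 1003 tested sequences (vertical axis, Black kingkong minus LK99) against its mean level over the 2 cultivars (horizontal axis, TMM-scaled CPM on a log axis), coloured by call. The 119 higher and 163 lower calls lie mainly below 10 CPM, miR166-y stands alone at the right, and the slanting line of orange points holds sequences with 0 counts in Black kingkong, whose fitted fold changes depend on the prior count.

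The clearest rise among conserved families was that of miR319, which represses TCP genes that limit cell division in leaves. The main strand, stu-miR319a-3p, stood at 5359, 5486 and 6025 CPM in Black kingkong and 1328, 969.7 and 1915 CPM in LK99. The 3 Black kingkong libraries were all above the LK99 libraries, with means of 5623 ± 354 CPM in Black kingkong and 1404 ± 477 CPM in LK99 (SD, n = 3) and a log2 fold change of 2.00 (SE 0.25, edgeR adjusted p 0.000103). A form of 22 nt that contains all its 21 nt, miR319-y, stood at 617, 666 and 561 CPM in Black kingkong and 122, 112 and 119 CPM in LK99. This was a log2 fold change of 2.38 (SE 0.21, edgeR adjusted p 3.50e-06). The distinct potato sequence stu-miR319-3p measured 105 ± 11.5 CPM in Black kingkong and 34.3 ± 2.06 CPM in LK99 (SD, n = 3), and its log2 fold change of 1.61 (SE 0.28, edgeR adjusted p 0.000905) was in the same direction. The passenger strand stu-miR319a-5p rose less, from 5.92 ± 1.45 CPM in LK99 to 12.01 ± 2.05 CPM in Black kingkong (SD, n = 3), with an edgeR adjusted p of 0.0169, a call that was lost under 5 alternatives, library size alone among them (log2 fold change 0.69, adjusted p 0.13). Of 4 tested sequences with the seed of stu-miR319a-3p, 3 were called, all higher. In Red beauty and Longshu No.7 the level of stu-miR319a-3p was 2868 ± 534 and 5042 ± 797 CPM, so LK99 had the lowest mean of the 4 cultivars.

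The related miR159, whose main targets are GAMYB genes, did not pass the test. Its most abundant form, miR159-y, stood at 2969.7, 2917 and 2807 CPM in Black kingkong and 2577, 1860.4 and 2757 CPM in LK99. The log2 fold change was 0.27 (SE 0.23, edgeR adjusted p 0.392), and under library size alone the sign turned to -0.09. Among the 7 tested sequences of the miR159 and miR319 families, 4 were higher (57.1%, beside 11.9% over all) and 0 lower. Their median log2 fold change was 1.02 beside -0.04 over all sequences. All 4 calls were miR319 sequences, and they are not independent. The form miR319-y contains all 21 nt of stu-miR319a-3p, and stu-miR319a-5p is the other strand of that hairpin. Summed over its members, the miR319 family stood at 6793 ± 702 CPM in Black kingkong and 1825 ± 559 CPM in LK99 (SD, n = 3), a log2 fold change of 1.90, SE 0.26, edgeR adjusted p 0.000181. In that fit of family sums together with the remaining sequences, 272 of 912 rows (29.8%) were called, and among 83 named families 10 were higher and 6 lower.

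The SPL-targeting families moved the other way. The main miR156 sequence, stu-miR156d-5p, stood at 1202, 1210.2 and 1204 CPM in Black kingkong and 2737, 1984 and 4406 CPM in LK99. The Black kingkong libraries lay within a few CPM of each other, and each was below all LK99 libraries, which differed far more among themselves. The means were 1205 ± 4.398 CPM in Black kingkong and 3043 ± 1239.5 CPM in LK99 (SD, n = 3) and the log2 fold change was -1.34 (SE 0.27, edgeR adjusted p 0.00232). A 20 nt potato form, stu-miR156f-5p, fell further, from 17.9, 14.1 and 36.01 CPM in LK99 to 2.29, 2.53 and 5.14 CPM in Black kingkong, with a log2 fold change of -2.77 (SE 0.46, edgeR adjusted p 0.000654). The form miR156-x, which shares 19 nt with it, stood at 24.7, 21.7 and 38.8 CPM in Black kingkong and 62.3, 58.04 and 165 CPM in LK99. LK99 replicate 3 carried the highest value there, and without it the log2 fold change of -1.75 became -1.08 and the call was kept.

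In contrast, stu-miR156e, which also shares 19 nt with stu-miR156f-5p but starts elsewhere and so has another seed, stood at 7.45, 11.6 and 20.9 CPM in Black kingkong and 14.4, 6.76 and 13.1 CPM in LK99. Its libraries overlapped and its log2 fold change was 0.21 (SE 0.37, edgeR adjusted p 0.697), and it was chosen after its values were seen. Its sign turned when library size alone was used and when Black kingkong replicate 3 or LK99 replicate 2 was left out. The difference between stu-miR156e and stu-miR156f-5p was not itself tested, and the counting of the authors could split reads between such forms. Of the 8 tested SPL-regulator sequences, 5 were lower and 0 higher, with a median log2 fold change of -1.26, against 16.3% of all tested sequences that were lower. These 5 calls are not independent. The form miR157-x contains all 21 nt of stu-miR156d-5p, stu-miR156d-3p is the other strand of that hairpin, and miR156-x shares 19 nt with stu-miR156f-5p. The remaining calls were rarer. The form miR157-x, at 1.93 ± 0.268 CPM in Black kingkong and 4.81 ± 1.61 CPM in LK99 (SD, n = 3), lost its call under 5 alternatives. The passenger strand stu-miR156d-3p, at 2.93 ± 0.7898 CPM in Black kingkong and 6.72 ± 1.33 CPM in LK99 (SD, n = 3), lost it under 4. The miR156 family sum was 1300.5 ± 76.1 CPM in Black kingkong and 3328 ± 1473 CPM in LK99 (SD, n = 3), a log2 fold change of -1.36, SE 0.29, edgeR adjusted p 0.00342.

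The miRNAs of phase change and meristem function showed 4 higher and 0 lower calls among 20 tested sequences, with a median log2 fold change of 0.39. Their share of 20%, all higher, stood beside 11.9% higher and 28.1% called in either direction over all tested sequences. The 3p sequence of miR172a, b and e, directed at AP2-like genes, stood at 416, 457 and 529.7 CPM in Black kingkong and 314, 263 and 302 CPM in LK99. The difference, a log2 fold change of 0.67 (SE 0.19, edgeR adjusted p 0.0183), was called, and the call was lost under 5 alternatives, among them library size alone (0.31, adjusted p 0.27) and no filter on low counts (0.60, adjusted p 0.26). The whole miR172 family was not called, at 863 ± 198 CPM in Black kingkong and 651 ± 98.7 CPM in LK99 (SD, n = 3; log2 fold change 0.41, edgeR adjusted p 0.19). The passenger strand stu-miR172e-5p, at 3.81 ± 1.35 CPM in Black kingkong and 1.27 ± 0.733 CPM in LK99 (SD, n = 3), was called with an edgeR adjusted p of 0.0445 and lost the call under 13 alternatives. From a NAC-targeting family, miR164-x, at 3.98 ± 1.46 CPM in Black kingkong and 1.35 ± 0.7705 CPM in LK99 (SD, n = 3), was called with an edgeR adjusted p of 0.0418 and lost the call under 10.

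Within the HD-ZIP III-targeting miR166 family, the sequence shared by miR166a, c and d was higher in Black kingkong. It stood at 1605, 1582 and 1728 CPM in Black kingkong and 1075, 1044 and 873 CPM in LK99, with a log2 fold change of 0.72 (SE 0.18, edgeR adjusted p 0.00853), and lost its call under library size alone (log2 fold change 0.36, adjusted p 0.15) and in the unfiltered table (0.65, adjusted p 0.15). The dominant miR166-y had 824466, 920091 and 976806 CPM in Black kingkong and 617741, 792221 and 737955 CPM in LK99, although its share of raw counts was 89.0 to 89.8% in Black kingkong and 88.9 to 90.7% in LK99. Its log2 fold change of 0.34 did not pass (edgeR adjusted p 0.13) although the libraries did not overlap. It turned to -0.0017 under library size alone and was called with replicate numbers as a block (0.34, adjusted p 0.039). The growth-regulating factor miRNA stu-miR396-5p pointed lower, at 5699, 5065 and 5980.2 CPM in Black kingkong and 6954, 9326 and 9105 CPM in LK99, without overlap of the libraries. Its log2 fold change of -0.60 (SE 0.26, edgeR adjusted p 0.101) was not called in the fit of 12 libraries but was called under 4 alternatives, including the fit of the 6 libraries alone (-0.64, adjusted p 0.029).

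GRAS-targeting miR171 was measured only as a family, because none of its 7 sequences had enough counts to be tested alone. The family summed to 5.37, 10.5 and 3.20 CPM in Black kingkong and 0.511, 0.587 and 0.552 CPM in LK99, from 126 and 12 counts. Every Black kingkong library was above every LK99 library, with a log2 fold change of 3.49, SE 0.54, edgeR adjusted p 0.000433. Most of these counts, 83 against 0, came from miR171-z.

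**Figure D2:**
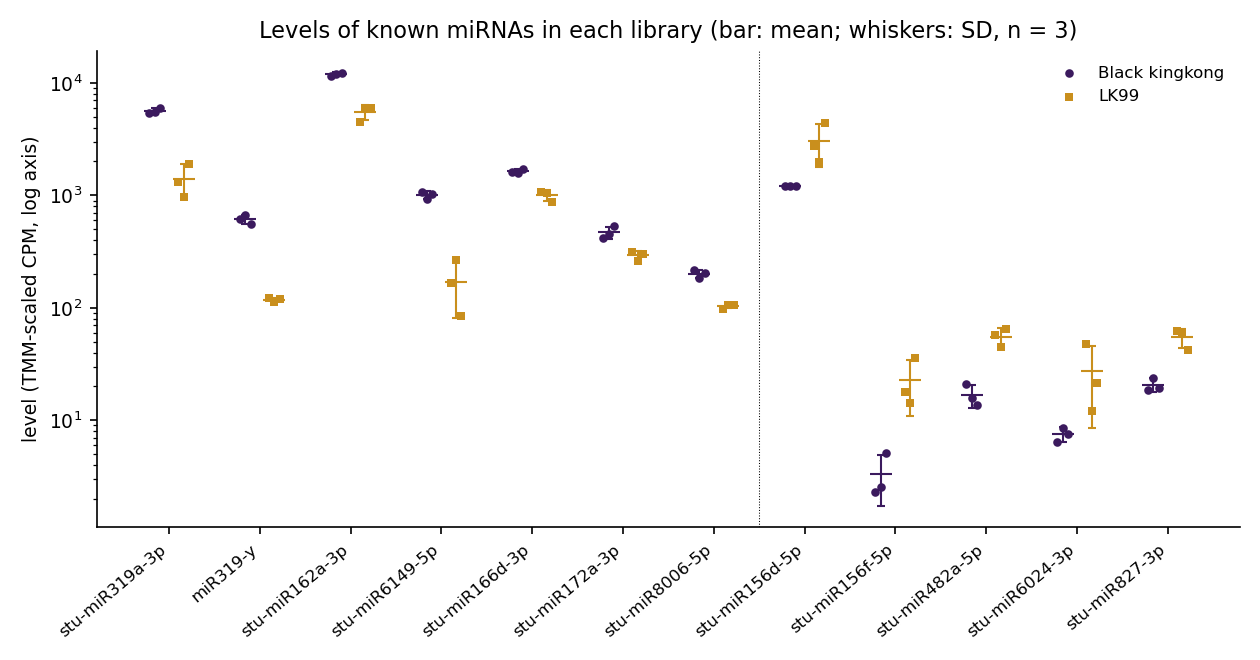
Levels of 12 called miRNA sequences in each library (vertical axis, TMM-scaled CPM on a log axis), with Black kingkong as dark circles, LK99 as yellow squares, a bar at the mean and whiskers of 1 SD (n = 3). The 7 sequences left of the dotted line are higher in Black kingkong and the 5 on its right are lower, and in each of the 12 the libraries of the cultivars do not overlap.

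The R2R3-MYB regulators bear most directly on the subject of the series. The main sequence, miR858-x, stood at 383, 372 and 485 CPM in Black kingkong and 138, 174 and 262 CPM in LK99. Each Black kingkong library was above each LK99 library, with means of 413 ± 62.3 CPM in Black kingkong and 192 ± 63.6 CPM in LK99 (SD, n = 3), yet the log2 fold change of 1.11 (SE 0.49, edgeR adjusted p 0.11) did not pass in the fit of 12 libraries. It passed under 4 alternatives, which were the 6 libraries alone (1.07, adjusted p 0.013), no filter (1.04, adjusted p 0.02), without Longshu No.7 replicate 3 (1.13, adjusted p 0.028) and with replicate numbers as a block (1.18, adjusted p 0.021). The 21 nt form miR858-z, at 3.297, 3.72 and 1.82 CPM in Black kingkong and 0.7103, 1.07 and 0.917 CPM in LK99, was called with a log2 fold change of 1.71 (SE 0.51, edgeR adjusted p 0.0282) and lost the call under 9 alternatives. It contains all 20 nt of miR858-x. The form miR858-y, at 214 CPM in Black kingkong and 139 CPM in LK99, was not called (log2 fold change 0.62, SE 0.49, edgeR adjusted p 0.374). Nor was the miR858 family sum, at 646 ± 108 CPM in Black kingkong and 343 ± 61.5 CPM in LK99 (SD, n = 3; log2 fold change 0.91, SE 0.57, edgeR adjusted p 0.244). Both cultivars stood far above Red beauty and Longshu No.7, in which miR858-x averaged 2.09 and 2.26 CPM. Of the 4 tested sequences of miR828 and miR858, 1 was higher and 0 lower, beside 11.9% higher over all tested sequences, and the miR828 family sum was 7.81 ± 0.880 CPM in Black kingkong and 7.16 ± 2.48 CPM in LK99 (SD, n = 3; log2 fold change 0.12, edgeR adjusted p 0.82), with a sign that turned under library size alone and without LK99 replicate 2.

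Auxin-related miRNAs included 3 higher and 0 lower calls among 8 tested sequences, all of them rare, a share of 37.5% higher beside 11.9% over all tested sequences. The miR160 family targets auxin response factors, and stu-miR160a-5p stood at 2.01, 2.08 and 2.32 CPM in Black kingkong and 0.118, 0.307 and 0 CPM in LK99, from 42 and 3 counts. That is a ratio of 16.03 with a 95% interval of 5.12 to 80.8 that covers counting error only, with an edgeR adjusted p of 0.00182. Its fitted log2 fold change of 3.81 became 4.72 without LK99 replicate 2, which held 2 of the 3 counts. Another call was the passenger strand stu-miR167c-3p, at 5.82 ± 1.07 CPM in Black kingkong and 1.903 ± 0.622 CPM in LK99 (SD, n = 3). The last was the passenger strand stu-miR393-3p, at 4.19 ± 1.003 CPM in Black kingkong and 1.26 ± 1.31 CPM in LK99 (SD, n = 3), which lost its call under 7 alternatives and moved from a log2 fold change of 1.71 to 2.95 without LK99 replicate 3. The functional strand of miR393, which targets auxin receptor mRNAs, was not called: stu-miR393-5p measured 23.96 ± 4.81 CPM in Black kingkong and 20.8 ± 4.08 CPM in LK99 (SD, n = 3), edgeR adjusted p 0.69, and its log2 fold change of 0.20 turned to -0.14 under library size alone. The most abundant miR167 sequence, miR167-x, was not called either, at 32.1 ± 7.51 CPM in Black kingkong and 27.9 ± 2.60 CPM in LK99 (SD, n = 3), edgeR adjusted p 0.595. Nor was the miR167 family sum, at 48.0 ± 6.62 CPM in Black kingkong and 40.5 ± 5.78 CPM in LK99 (SD, n = 3), edgeR adjusted p 0.529.

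Targets of miR162, miR168 and miR403 lie in the small RNA machinery itself, and miR162 pairs with the mRNA of DICER-LIKE1. The sequence stu-miR162a-3p was the most abundant call, at 11528, 12085 and 12326 CPM in Black kingkong and 4505, 5953.9 and 6040.2 CPM in LK99. All Black kingkong libraries were above all LK99 libraries, with means of 11980.1 ± 409 CPM in Black kingkong and 5499.6 ± 863 CPM in LK99 (SD, n = 3) and a log2 fold change of 1.12 (SE 0.18, edgeR adjusted p 0.000584). A second 3p sequence, miR162-y, moved by a log2 fold change of 1.20 (SE 0.22, edgeR adjusted p 0.0011), from 78.2 ± 12.7 CPM in LK99 to 179 ± 29.2 CPM in Black kingkong (SD, n = 3). The ARGONAUTE-targeting miRNAs did not pass. For miR168-x the levels were 780.2 ± 137 CPM in Black kingkong and 611 ± 108 CPM in LK99 (SD, n = 3), with an edgeR adjusted p of 0.24. For miR403-y they were 3534 ± 372 CPM in Black kingkong and 2741.4 ± 202 CPM in LK99 (SD, n = 3), with an edgeR adjusted p of 0.19. Among the 8 tested sequences of these families 2 were higher (25%, beside 11.9% over all) and 0 lower, with a median log2 fold change of 0.72.

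Of 5 tested copper-responsive sequences, 1 was higher and 0 were lower, beside 11.9% higher over all. It was stu-miR408b-5p, with 19 and 4 counts, whose call was lost under 5 alternatives. The miR408 family, directed at copper proteins of the plantacyanin and laccase kinds, summed to 4.35 ± 0.916 CPM in Black kingkong and 1.84 ± 0.768 CPM in LK99 (SD, n = 3; log2 fold change 1.23, SE 0.40, edgeR adjusted p 0.0326), and this call was lost under library size alone (0.90, adjusted p 0.12) and without any of 3 single libraries. Of 10 tested nutrient-related sequences 0 were higher and 2 lower, with a median log2 fold change of -0.49, and this share of 20% lower is near the 16.3% over all tested sequences. Phosphate-responsive stu-miR827-3p, which acts on SPX-domain genes, stood at 18.6, 23.9 and 19.6 CPM in Black kingkong and 62.6, 58.96 and 42.6 CPM in LK99. Its log2 fold change was -1.40 (SE 0.38, edgeR adjusted p 0.0145). Its call was lost without Black kingkong replicate 1 (adjusted p 0.061) or replicate 3 (adjusted p 0.052). The rare miR2111-x, of another phosphate-responsive family, stood at 1.003, 0.297 and 0.497 CPM in Black kingkong and 6.04, 1.23 and 5.24 CPM in LK99, from 12 and 99 counts, with a log2 fold change of -2.76 (SE 0.68, edgeR adjusted p 0.0082) that became -3.36 without Black kingkong replicate 1. The phosphate-starvation miRNA miR399-y was not called, at 18.05 ± 6.15 CPM in Black kingkong and 23.6 ± 8.89 CPM in LK99 (SD, n = 3), edgeR adjusted p 0.65.

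The families directed at resistance genes held 25 tested sequences, of which 0 were higher and 4 were lower, with a median log2 fold change of -0.11. The share of 16% lower is that of all tested sequences (16.3%). The abundant members did not pass. The 22 nt miR5300-x measured 11902 ± 984 CPM in Black kingkong and 10709 ± 2143 CPM in LK99 (SD, n = 3), with an edgeR adjusted p of 0.64. For stu-miR482c the levels were 2772 ± 393 CPM in Black kingkong and 2213 ± 788 CPM in LK99 (SD, n = 3), with an edgeR adjusted p of 0.33. The 3p strand stu-miR482a-3p stood at 943 ± 117 CPM in Black kingkong and 1184 ± 421 CPM in LK99 (SD, n = 3), with an edgeR adjusted p of 0.38, so none of these abundant NLR-targeting miRNAs was called. The log2 fold changes of miR5300-x (0.15) and stu-miR482c (0.32) turned to -0.17 and -0.06 under library size alone, whereas stu-miR482c was called higher without LK99 replicate 1 (0.65, adjusted p 0.039). The 4 calls were 3 5p strands and 1 3p strand. The 5p strand stu-miR482a-5p stood at 20.9, 15.8 and 13.6 CPM in Black kingkong and 57.1, 44.5 and 64.8 CPM in LK99. This was a log2 fold change of -1.72 (SE 0.28, edgeR adjusted p 0.000629).

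For miR6026 the strands differed in their counts. The 5p strand had 0 counts in all Black kingkong libraries and 161 in LK99, at 9.83, 2.76 and 7.86 CPM. Taking 3 counts over the 3 libraries as its floor, it was at least 44.8-fold lower in Black kingkong, with an edgeR adjusted p of 0.000121. The 3p strand stu-miR6026-3p stood at 158, 158 and 151 CPM in Black kingkong and 158, 186 and 160.0 CPM in LK99, and its libraries overlapped (log2 fold change -0.11, SE 0.19, edgeR adjusted p 0.71). Both strands of miR6024 were lower, the 3p strand at 6.45, 8.62 and 7.62 CPM in Black kingkong and 48.1, 11.98 and 21.6 CPM in LK99. The log2 fold change was -1.85 (SE 0.46, edgeR adjusted p 0.00846). LK99 replicate 1 was the highest of these libraries, and without it neither strand was called, at -1.14 with an adjusted p of 0.053 for the 3p strand and -1.44 with an adjusted p of 0.052 for the 5p strand.

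**Figure D3:**
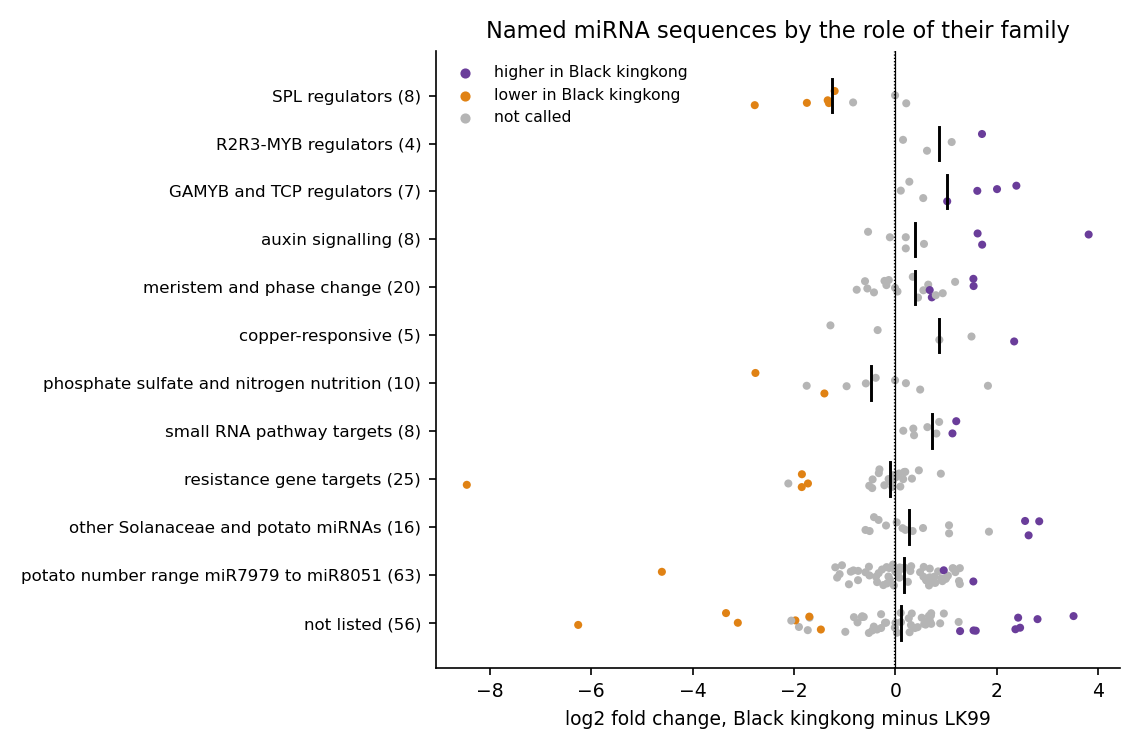
Log2 fold change of each tested sequence with a known name (horizontal axis, Black kingkong minus LK99), grouped by the role of its family (vertical axis, number tested in parentheses), with a black bar at the median of each group and a dotted line at the median of all tested sequences. Calls in the SPL, nutrition and resistance groups are all lower, and those in the MYB, GAMYB and TCP, auxin, meristem, copper, small RNA pathway and other Solanaceae groups are all higher.

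Among miRNAs known mainly from potato and its relatives, miR6149 rose in both strands and in a 19 nt form. The main strand stu-miR6149-5p stood at 1069, 924 and 1029 CPM in Black kingkong and 166, 264 and 83.8 CPM in LK99. Its log2 fold change was 2.55 (SE 0.33, edgeR adjusted p 0.000123). The 3p strand stood at 6.16, 6.39 and 5.801 CPM in Black kingkong and 1.07, 1.07 and 0.393 CPM in LK99. This was a log2 fold change of 2.83 (SE 0.38, edgeR adjusted p 0.000168). No library of Black kingkong overlapped an LK99 library in either strand, and Red beauty and Longshu No.7, at 2097 ± 332 and 1079.7 ± 133 CPM of the 5p strand, were also above LK99. The abundant stu-miR1919-3p overlapped between the cultivars, at 3102 ± 692 CPM in Black kingkong and 2454 ± 1034 CPM in LK99 (SD, n = 3), with an edgeR adjusted p of 0.41. So did stu-miR530, at 605 ± 12.9 CPM in Black kingkong and 812 ± 319 CPM in LK99 (SD, n = 3), with an edgeR adjusted p of 0.34. Of 16 tested sequences in this group 3 were higher, all miR6149, and 0 lower, beside 11.9% higher over all.

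Potato miRNAs numbered miR7979 to miR8051 were seldom called, with 2 higher and 1 lower call among 63 tested sequences and a median log2 fold change of 0.18, against 28.1% called over all tested sequences. The 24 nt stu-miR8006-5p stood at 216, 183 and 204 CPM in Black kingkong and 98.1, 107 and 107 CPM in LK99. The log2 fold change was 0.95 (SE 0.22, edgeR adjusted p 0.00633). Red beauty and Longshu No.7 averaged 7.47 and 6.5 CPM. That call was lost under library size alone (log2 fold change 0.61, adjusted p 0.076) and in the unfiltered table (0.88, adjusted p 0.085). Of 2 tested sequences with the seed of stu-miR8006-5p, it alone was called. The miR8006 family sum was not called, at 284 ± 22.0 CPM in Black kingkong and 221 ± 12.7 CPM in LK99 (SD, n = 3; log2 fold change 0.37, SE 0.21, edgeR adjusted p 0.205). The 22 nt stu-miR8033-5p stood at 117, 122 and 121 CPM in Black kingkong and 26.9, 31.3 and 65.99 CPM in LK99. Its log2 fold change was 1.53 (SE 0.35, edgeR adjusted p 0.00557). The lower call, stu-miR8011a-3p, had 1 count against 39 in LK99, which is a ratio of 34.1 with a 95% counting interval of 5.76 to 1380. That 1 count was in Black kingkong replicate 3.

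Names outside these groups gave 8 higher and 6 lower calls among 56 tested sequences, a called share of 25% beside 28.1% over all. Chosen after its values were seen, miR394-x stood at 12.8, 11.3 and 15.6 CPM in Black kingkong and 3.08, 5.99 and 4.19 CPM in LK99. An overlapping potato sequence, stu-miR384-5p, shares 18 nt with it and was not called, at 442 ± 52.7 CPM in Black kingkong and 503 ± 33.2 CPM in LK99 (SD, n = 3), with a log2 fold change of -0.19 (SE 0.26, edgeR adjusted p 0.628). These forms start at different bases and so have different seeds. Summed, they stood at 456 CPM in Black kingkong and 508 CPM in LK99. The rise of miR394-x is thus that of the rarer form and not of the sum, and reads could be split between them. Sequences of different miR477 entries went opposite ways, miR477-y with a log2 fold change of 2.36 (SE 0.42, edgeR adjusted p 0.000905) and stu-miR477b-5p with -1.70 (SE 0.40, edgeR adjusted p 0.00661). The 3p strand of miR7122 was lower, at 5.796 ± 0.437 CPM in Black kingkong and 16.1 ± 7.26 CPM in LK99 (SD, n = 3), a call lost without Black kingkong replicate 2 or LK99 replicate 3. Across all lists, 44 families had a most abundant sequence of at least 10 CPM. Of those leading sequences 6 were higher, 3 lower and 35 not called, with log2 fold changes of the uncalled between -1.10 and 1.27.

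Most calls, 91 higher and 145 lower, fell among the 773 tested sequences that the authors predicted as miRNAs, where the median log2 fold change was -0.16. These were 77.1% of all tested sequences, and 30.5% of them were called beside 28.1% over all. Several of these had counts almost only in the libraries of 1 cultivar. The sequences shown are 3 pairs that differ by 1 base, 2 overlapping pairs, and a pair of sequences that were low in Black kingkong and well counted in LK99.
m5853-5p: cTCAATCGgcaagtaaacact
m5862-5p: cTCAACCGgcaagtaaacact
m5954-3p: tTCCATATaggtcgttgctct
m5955-3p: tTCCACATaggtcgttgctct
m5771-5p: tCCATCAGcagcagaagcttt
m5545-3p: tCCATCAGcaccagaagcttt
m4457-3p: tTTCAGAAccagtagcactca
m4256-3p: aCCAGTAGcactcattatgac
m1752-5p: cATCTGTTaaaagtttggctc
m6388-5p: tTTATGCCatctgttaaaagt
m2963-3p: tAAGCCTGagattacctttgta
m2741-5p: gCTTAGATatgacatagggct

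The largest rise by the naming rule was that of m4457-3p. It stood at 50.7, 47.1 and 47.4 CPM in Black kingkong and 0.237, 0.154 and 0.262 CPM in LK99, from 957 and 5 counts, a log2 fold change of 7.66 (SE 0.56, edgeR adjusted p 1.99e-06). Red beauty and Longshu No.7 lay between, at 2.46 and 10.3 CPM. The overlapping m4256-3p, which shares 14 nt with it, rose by less, at 18.2 ± 3.99 CPM in Black kingkong and 3.96 ± 1.26 CPM in LK99 (SD, n = 3). Another overlapping pair, m1752-5p and m6388-5p, was also higher: m1752-5p stood at 285, 283 and 294 CPM in Black kingkong and 19.4, 51.6 and 1.18 CPM in LK99. Its partner m6388-5p stood at 60.6, 51.9 and 50.5 CPM in Black kingkong and 8.05, 9.06 and 0 CPM in LK99. The LK99 libraries differed widely for both, with replicate 3 at or near 0. The log2 fold changes were 3.58 (SE 0.98, edgeR adjusted p 0.0145) and 3.25 (SE 0.93, edgeR adjusted p 0.0178), and without LK99 replicate 1 the call of m1752-5p was lost (3.47, adjusted p 0.06). Without LK99 replicate 2 its log2 fold change was 4.79, and that of m6388-5p was 2.67 without LK99 replicate 3.

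Both strands were called higher in the predicted hairpins m3099, m3371 and m4457. For m3099 the 5p strand stood at 289, 281 and 296 CPM in Black kingkong and 37.4, 58.8 and 18.99 CPM in LK99. The 3p strand stood at 38.6, 27.1 and 29.5 CPM in Black kingkong and 3.55, 7.37 and 2.23 CPM in LK99. The strands moved alike, by log2 fold changes of 2.91 (SE 0.40, edgeR adjusted p 0.000179) and 2.86 (SE 0.45, edgeR adjusted p 0.000534). For m3371 and m4457 the strands moved unequally, by 2.11 (5p) against 4.76 (3p) and by 1.87 (5p) against 7.66 (3p) on the log2 scale, a difference that was not tested. The remaining largest rises included m3371-3p, at 16 ± 0.572 CPM in Black kingkong and 0.572 ± 0.503 CPM in LK99 (SD, n = 3). They also included miR10539-y, at 12.5 ± 9.16 CPM in Black kingkong and 1.06 ± 0.549 CPM in LK99 (SD, n = 3). The last was the 23 nt m3370-3p, at 10.8 ± 1.298 CPM in Black kingkong and 1.86 ± 1.12 CPM in LK99 (SD, n = 3). Without Black kingkong replicate 1, which stood at 23.1 CPM, the log2 fold change of miR10539-y fell from 3.51 to 2.72. That of m3371-3p went from 4.76 to 5.41 without LK99 replicate 1, and that of m3370-3p from 2.52 to 3.13 without LK99 replicate 3.

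In the lower direction, m2963-3p stood at 5.304, 3.57 and 1.82 CPM in Black kingkong and 190.1, 261 and 204 CPM in LK99. Black kingkong was below LK99 in every library, with a log2 fold change of -5.92 (SE 0.46, edgeR adjusted p 1.99e-06), and Red beauty and Longshu No.7 were as high as LK99 or higher, at 247 and 449.8 CPM. The overlapping m2740-3p, chosen after its values were seen, had 1 count in Black kingkong and 39 in LK99. Likewise m2741-5p stood at 1.58, 0.297 and 0.166 CPM in Black kingkong and 51.4, 67.6 and 61.5 CPM in LK99. This was a log2 fold change of -6.39 (SE 0.55, edgeR adjusted p 3.50e-06). Its shifted forms m3686-5p (1 against 80 counts) and m3009-5p (0 against 28 counts), also outside the naming rule, were lower as well. Black kingkong replicate 1 held 11 of the 14 counts of m2741-5p in that cultivar, and without it the log2 fold change was -7.89. Forms such as these can share reads or a source, which was not tested, so they are not taken as independent calls. The rare m4980-5p, at 0.287, 0.149 and 0 CPM in Black kingkong and 33.4, 59.7 and 8.25 CPM in LK99, came from 3 and 734 counts, which is a ratio of 214 with a 95% counting interval of 72.8 to 1039, and it was at 0.0614 CPM in Red beauty and 0 in Longshu No.7. Its fitted log2 fold change of -7.63 became -8.43 without Black kingkong replicate 1 and -6.93 without LK99 replicate 2.

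The other lower sequences named by the rule on size were m0830-5p, at 0.242 ± 0.2202 CPM in Black kingkong and 21.3 ± 8.18 CPM in LK99 (SD, n = 3), and m2728-5p, at 0.594 ± 0.359 CPM in Black kingkong and 15.2 ± 1.22 CPM in LK99 (SD, n = 3). To these belong m6333-3p, at 1.24 ± 0.602 CPM in Black kingkong and 25.6 ± 8.41 CPM in LK99 (SD, n = 3), and m1597-3p, at 0.981 ± 0.713 CPM in Black kingkong and 17.1 ± 6.52 CPM in LK99 (SD, n = 3). In each of these the Black kingkong libraries were all below the LK99 libraries. Without Black kingkong replicate 1 the log2 fold change of m0830-5p went from -6.29 to -6.92 and that of m2728-5p from -4.61 to -5.21. A further 3 had 0 counts in Black kingkong. Against the floor of 3 counts, m5954-3p (562 counts in LK99) was at least 161-fold lower, m3874-5p (237 counts) at least 69.2-fold lower and m5853-5p (230 counts) at least 68.0-fold lower. LK99 replicate 3 held 342 of the counts of m5954-3p and 162 of those of m3874-5p, and without it these limits were 94.8-fold and 34.1-fold. Over all tested sequences, 33 of the calls had 0 counts in Black kingkong and 8 had 0 counts in LK99. The abundant m4927-3p, at 96.04, 92.9 and 124 CPM in Black kingkong and 409, 114 and 192 CPM in LK99, was called lower although its libraries overlapped, and without LK99 replicate 1 its log2 fold change of -1.19 became -0.54 and the call was lost.

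Of 17 tested pairs that differ by 1 base, 2 had both members called. The directions were opposite in the first: m5853-5p differs from m5862-5p by T6C, counted from the 5′ end with the base of the first-named sequence first, which lies in the seed. As given above, m5853-5p had no count in Black kingkong and 7.46, 11.5 and 12.0 CPM in LK99. Its partner m5862-5p stood at 63.6, 73.1 and 84.7 CPM in Black kingkong and 25.7, 28.7 and 23.96 CPM in LK99. The log2 fold change was 1.5 (SE 0.24, edgeR adjusted p 0.000584). In LK99 libraries both forms were counted, and in Black kingkong libraries only m5862-5p was. In the other pair, m5954-3p and m5955-3p, which also differ by T6C, both were lower, m5955-3p from 7.06 ± 6.59 CPM in LK99 to 0.265 ± 0.2502 CPM in Black kingkong (SD, n = 3). The log2 fold change of -4.69 ranged from -5.43 without Black kingkong replicate 3 to -3.58 without LK99 replicate 3. A further pair had 1 call. The called m5771-5p stood at 10.9, 11.9 and 16.4 CPM in Black kingkong and 0.237, 0 and 0.655 CPM in LK99. Its log2 fold change was 5.32 (SE 0.53, edgeR adjusted p 1.90e-05), and 6.43 without LK99 replicate 3. Its neighbour m5545-3p, which differs by C11G with its own base first, was at 103 ± 31.6 CPM in Black kingkong and 117 ± 66.5 CPM in LK99 (SD, n = 3). It was not called (edgeR adjusted p 0.79), and its log2 fold change of -0.17 turned to 0.21 without LK99 replicate 1. Sequences this close can share reads, so their single values are uncertain.

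Where both members of a related pair were called, the directions mostly matched. Sequences that differ only at their ends gave 38 tested pairs, of which 8 had both members called, all 8 in the same direction. These 8 are not independent, because such forms can share reads and some sequences enter several pairs. Each pair among m2741-5p, m3009-5p and m3686-5p is counted, as is each among miR156-x, stu-miR156f-5p and m5896-5p. Sequences that overlap after a larger shift gave 12 pairs, of which 4 had both members called, all 4 in the same direction. Of 19 potato hairpins with both strands tested, 4 had both called (miR156d, miR319a, miR6024 and miR6149), all in the same direction, 7 had 1 called and 8 none. Of 29 predicted hairpins, 6 had both called, all in the same direction, 9 had 1 called and 14 none. Strands of 1 hairpin come from the same transcript and are not replicates of each other.

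**Figure D4:**
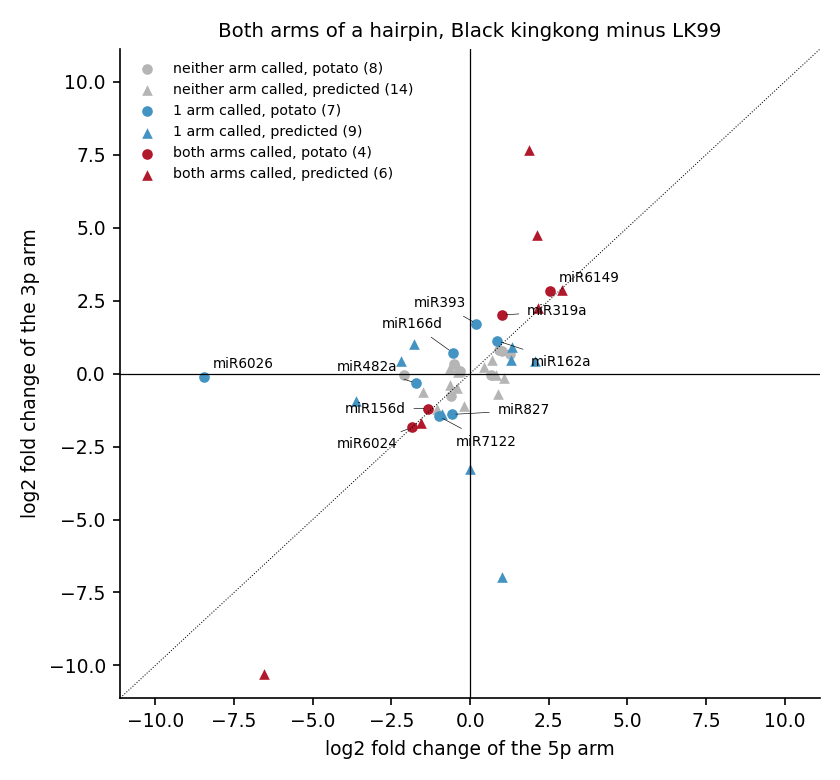
Log2 fold change of the 3p strand (vertical axis) against that of the 5p strand (horizontal axis), both Black kingkong minus LK99, for hairpins with both strands tested, with potato hairpins as circles, predicted ones as triangles and a dotted line of equal change. The 10 red points, with both strands called, all lie in the lower left or upper right quadrant, and miR6026 lies far to the left with its 3p strand near 0.

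Direction differed with length. Over all tested sequences 11.9% were higher and 16.3% lower. Of 356 tested sequences of 22 nt, 31 were higher (8.7%) and 83 lower (23.3%), with a median log2 fold change of -0.44. Of 364 of 21 nt, 53 were higher and 53 lower (14.6% each), with a median of -0.02. Of 184 of 23 nt, 31 were higher (16.8%) and 17 lower (9.2%), with a median of 0.44. The 40 of 24 nt had a median of 0.51 without an imbalance of calls, with 2 higher and 2 lower. The pattern at 22 nt was carried by predicted sequences, with 25 higher and 77 lower of 310 and a median of -0.50, whereas the 46 known names of 22 nt gave 6 higher and 6 lower and a median of -0.06. It was present above 10 CPM (3 higher and 16 lower of 73) and below it (28 higher and 67 lower of 283). Relative to the median of all sequences, the 22 nt median lay at -0.40 and the 23 nt median at 0.48, and under library size alone at -0.41 and 0.47. With at least 10 CPM in 3 libraries the 22 nt median lay at -0.28. There the 23 nt median lay at 0.034, from 13 sequences of which 2 were higher and 2 lower.

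At 22 nt the share of counts had the same direction, but it is weighted by abundance and so does not repeat the result over tested sequences. With all counts included, the differences (Black kingkong minus LK99) were -0.53 percentage points at 22 nt and 0.55 at 21 nt, each with a two-sided exact permutation p of 0.2. With miR166-y left out, itself 21 nt, sequences of 22 nt took 25.3, 23.1 and 21.4% of the counts in Black kingkong and 29.5, 29.4 and 27.1% in LK99, and those of 21 nt took 69.0, 71.5 and 72.6% and 64.2, 65.0 and 67.2%. The libraries did not overlap for either length. The differences were then -5.39 and 5.57 percentage points, each with an exact p of 0.1, the smallest that 3 against 3 libraries allow. They are not independent, because the shares of a library sum to a fixed total. At 21 nt the tested sequences had as many higher as lower calls. At 23 nt the share, also without miR166-y, differed by only 0.026 percentage points (two-sided exact permutation p 0.9). Single uncalled sequences weigh heavily in these shares. Chosen after its values were seen, m2651-5p took a mean of 17.5% in Black kingkong and 12.1% in LK99 (edgeR adjusted p 0.43). The 22 nt miR5300-x took 11.1% in Black kingkong and 12.8% in LK99, and the 21 nt stu-miR396-5p 5.21% and 10.2%.

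**Figure D5:**
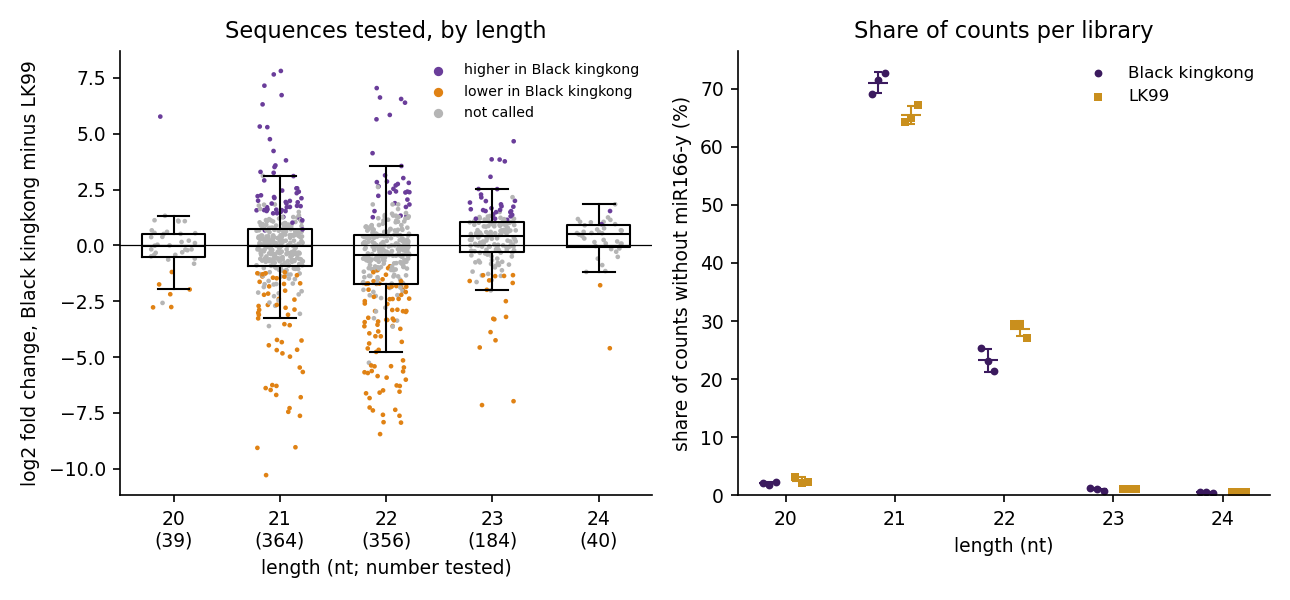
On the left, log2 fold change (Black kingkong minus LK99) of tested sequences by length in nt, with points coloured by call, boxes from the first to the third quartile, a line at the median and whiskers to 1.5 times the box height. On the right, the share of each library's counts per length after miR166-y is left out (percent, mean and SD, n = 3), where 22 nt is 21.4 to 25.3% in Black kingkong and 27.1 to 29.5% in LK99.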

How the data were processed

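Small RNA libraries of 12 potato tuber samples (4 cultivars, 3 libraries each) were used. The deposited table gives raw counts per miRNA entry and library, per the file headers. Genome build, miRBase release, aligner and counting tool: not given in the sources used here. No coordinates are printed. A further 12 columns of per-library values were not used. Entries with the same sequence were reduced to the most counted one, since 94 of 1072 such sequences had entries with different counts, so a count is not only reads of exactly that sequence.

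Counts were tested in edgeR 4.0.16 (R 4.3.3, limma 3.58.1) with the quasi-likelihood F-test on all 12 libraries, 1 coefficient per cultivar, TMM factors, filterByExpr (minimum count 10, minimum total 15) and Benjamini-Hochberg adjustment over all tested sequences, threshold 0.05. The SE is the log2 fold change divided by the square root of F. Family sums were tested the same way, and shares of counts per length with a two-sided exact permutation test (scipy 1.17.1). DESeq2 1.42.0, other scalings, filters, entry rules, a replicate block and leaving out each library were alternatives. The procedure was also run on counts simulated from the mean levels and fitted spread of these data, which cannot show whether that model holds for these libraries.

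Sequences named are the 10 largest non-overlapping calls per direction with at least 10 CPM, the 10 most abundant calls, the leading sequence of each listed family, called family members, hairpins with both strands tested, and opposite near-identical pairs. Others were chosen after their values were seen and are not all marked where they are named. Among them are miR394-x, stu-miR156e, miR477-y, stu-miR477b-5p, m2740-3p and m3009-5p. The comparison, members and lists were chosen with earlier results of these data known. Intervals and floors cover counting error only.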

Additional observations from a re-analysis of the deposited data

How the results depend on the processing

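No called sequence named in the text changed direction under any alternative that tested it. Of 66 named and called sequences, 47 kept the call under each alternative that tested them and 19 lost it under at least 1. Some sequences did not enter every alternative. The number of calls, 282, became 506 with no filter on low counts (336 of them lower), 70 with at least 10 CPM in 3 libraries (32 higher, 38 lower), and 422 with every deposited entry as its own row (254 lower). These settings test 5730 sequences, 250 sequences and 1349 entries, and a sequence can have several entries. Leaving out single libraries gave 192 to 368 calls in all, 88 to 168 higher and 104 to 200 lower, the fewest without Black kingkong replicate 1 and the most without Longshu No.7 replicate 3, and 11 to 27 called families in place of 16. DESeq2 called 267 sequences (102 higher, 165 lower), and scaling by library size alone 308. The 21 nt and 22 nt differences in the share of counts moved to 5.57 and -5.39 percentage points when miR166-y was left out, because the shares are then taken of the small remainder of counts.

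The replicate numbers did not pair the libraries: deviations of same-numbered libraries from their cultivar means correlated at -0.058 to 0.039, and not every library correlated best with its own number. With the replicate block 283 sequences were called (124 higher, 159 lower) and 20 families.

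Among uncalled values, library size alone turned the log2 fold changes of miR159-y to -0.087, miR166-y to -0.0017, miR5300-x to -0.17, stu-miR156e to -0.20, stu-miR393-5p to -0.14 and stu-miR482c to -0.064, and those of the family sum miR482 to -0.31, the family sum miR166 to -0.0014, the family sum miR159 to -0.087 and the family sum miR828 to -0.23. Over single libraries left out, the log2 fold change ranged from -0.28 to 0.50 for stu-miR156e, from -0.58 to 0.21 for m5545-3p, from -0.17 to 0.19 for the family sum miR482 and from -0.13 to 0.30 for the family sum miR828. Depth limits the rare calls: 3 counts over a cultivar are 0.152 CPM in Black kingkong and 0.133 CPM in LK99.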
